A study of Mus musculus with 47 samples.

Results

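The Hox genes are the 39 genes of the Hoxa, Hoxb, Hoxc and Hoxd clusters, taken as every gene in the deposited count table whose symbol is Hox, a cluster letter a to d and a number, and they make up 39 of 48795 genes in that table. RNA was sequenced from the striatum of 47 mice aged 6 months, of a strain labelled C57BL, with both sexes in each of 6 genotype groups and 1 library per mouse. The groups were Q140 (8 mice), wild type (8), Q140 Ccdc82+/- (8), Ccdc82+/- (8), Q140 Ccdc82-/- (7, of which 3 were female) and Ccdc82-/- (8). Q140 is a knock-in mouse model of Huntington's disease, a mutant huntingtin allele with a long CAG repeat, and the labels give it as heterozygous in all 3 groups that carry it. Ccdc82+/- and Ccdc82-/- are heterozygous and homozygous mutants of Ccdc82, a gene for a coiled-coil protein. The 23 libraries with Q140 and the 24 libraries without it are set against each other below wherever a Hox gene has too few counts for single groups.

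Hox genes encode homeodomain transcription factors that give cells of the embryo their position along the head to tail axis. In the brain their expression belongs to the hindbrain and spinal cord, while in forebrain structures such as the striatum the 4 clusters are held silent by Polycomb group proteins, which mark the clusters with histone H3 lysine 27 trimethylation. Within a cluster the genes lie in the order in which they are used along the body, and genes at the same place in different clusters are paralogs that share a number.

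Library depth ran between 41327333 and 61701245 counts assigned to genes. The labels were checked with 2 genes. Penk, the enkephalin precursor of striatal projection neurons that falls in Huntington's disease models, lay between 694 and 927 CPM (counts scaled to the TMM-adjusted library size) in every library with Q140 and between 1554 and 1818 CPM in every library without it. Ccdc82 lay between 3.67 and 5.87 CPM in the Ccdc82-/- groups with and without Q140, between 7.27 and 9.99 CPM in the Ccdc82+/- groups, and between 10.1 and 12.9 CPM in the Q140 and wild type groups. The 12 striatal neuron markers summed to between 8171 and 9988 CPM in the libraries with Q140 and between 13097 and 15088 CPM in those without.

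The Hox genes were close to silent in all groups. Together the 39 genes took 1016 of 2267563437 counts, and 77.6% of these came from Hoxa7 and Hoxd1. These 2 genes, with 460 and 328 counts, were the only members to pass the filter on low counts. Another 7 members had 10 to 75 counts over all 47 libraries, 11 had 1 to 7 counts, and 19 had none. A count of 0 over all libraries allows up to 3 counts, or 0.00132 CPM, which covers counting error only. Of the 327 Hox counts without Q140, Hoxd1 had 154 and Hoxa7 had 101. The level of Hoxd1 per transcript length in the authors' FPKM values (fragments per kilobase and depth) was 0.0722 ± 0.0316 in the libraries without Q140 (SD, n = 24). Hoxa7 came next in the libraries without Q140 with 0.0310 ± 0.0213 FPKM and then Hoxb4 with 0.0156 ± 0.0129 FPKM. In the libraries with Q140 the order was Hoxa7 at 0.110 ± 0.0436 FPKM, Hoxd1 at 0.0838 ± 0.0268 FPKM, then Hoxc4, Hoxb4 and Hoxc6 at 0.0106 ± 0.0149, 0.0105 ± 0.00971 and 0.0104 ± 0.0129 FPKM (SD, n = 23). The SD ranges of those last 3 genes overlapped, as did those of Hoxa7 and Hoxd1 in that group. The genes were measured in the same libraries, and differences between genes within libraries were not tested.

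**Figure D1:**
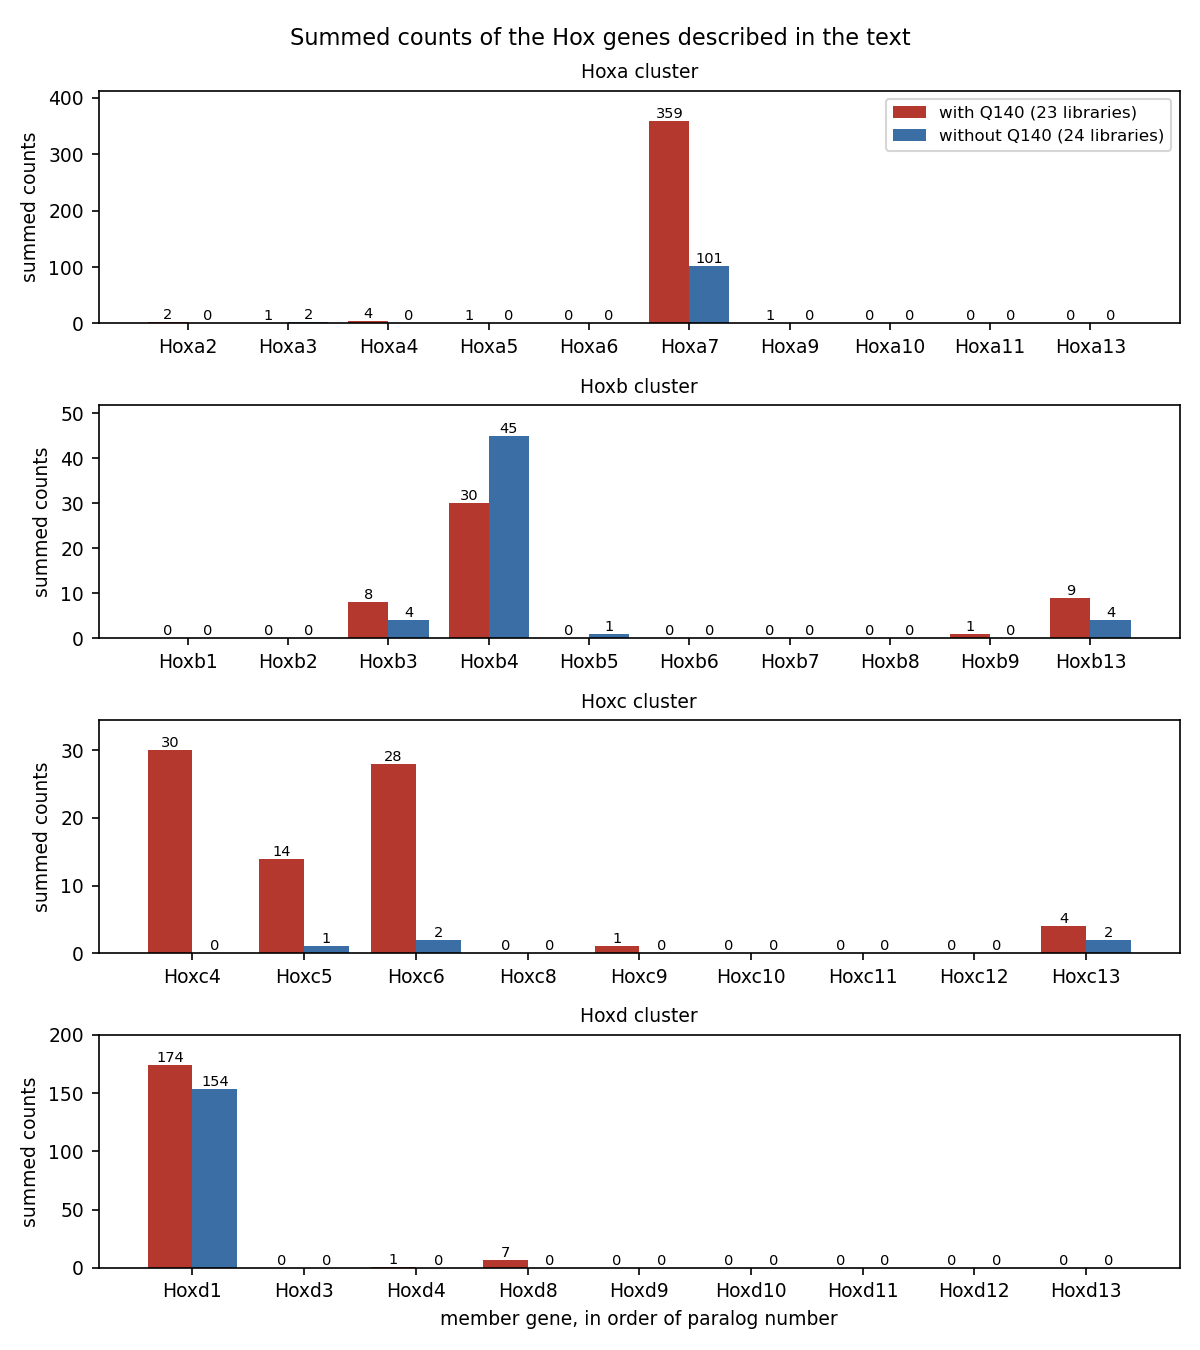
Summed counts of each Hox gene described in the text (y axis, counts) in the 23 libraries with Q140 (red, left bar) and the 24 libraries without it (blue, right bar), in 1 panel per cluster with its own scale; the number above each bar is its count. Hoxa7 with 359 and 101 counts and the Hoxc4 to Hoxc6 genes stand out, while Hoxd1 had 174 and 154 counts.

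The promoter windows of 3 members are shown because they carry the main contrast among the Hox genes: Hoxa7 and Hoxc4 had more counts with Q140, and Hoxd1, the most abundant member per length without Q140, did not pass the test. Each window runs from 250 bases before to 50 bases after a RefSeq transcript start in GRCm38.p6 and is written 5′ to 3′ on the strand of the gene. The windows are chr6:52218524-52218823 (minus strand) for Hoxa7, chr15:103034145-103034444 (plus strand) for Hoxc4 and chr2:74762730-74763029 (plus strand) for Hoxd1. Capitals mark CG dinucleotides, the sites of DNA methylation, whose density sets CpG islands apart from other promoters.
Hoxa7: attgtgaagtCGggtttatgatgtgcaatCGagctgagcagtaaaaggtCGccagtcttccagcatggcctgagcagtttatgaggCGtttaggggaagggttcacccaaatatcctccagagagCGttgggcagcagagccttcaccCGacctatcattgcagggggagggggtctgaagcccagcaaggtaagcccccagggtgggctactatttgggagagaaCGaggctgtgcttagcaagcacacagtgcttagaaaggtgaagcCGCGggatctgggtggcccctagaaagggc
Hoxc4: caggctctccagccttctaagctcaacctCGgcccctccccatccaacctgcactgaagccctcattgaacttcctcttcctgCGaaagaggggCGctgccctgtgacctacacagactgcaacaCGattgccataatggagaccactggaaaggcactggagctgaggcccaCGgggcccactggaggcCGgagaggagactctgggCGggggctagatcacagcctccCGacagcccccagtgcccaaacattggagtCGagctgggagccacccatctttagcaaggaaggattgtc
Hoxd1: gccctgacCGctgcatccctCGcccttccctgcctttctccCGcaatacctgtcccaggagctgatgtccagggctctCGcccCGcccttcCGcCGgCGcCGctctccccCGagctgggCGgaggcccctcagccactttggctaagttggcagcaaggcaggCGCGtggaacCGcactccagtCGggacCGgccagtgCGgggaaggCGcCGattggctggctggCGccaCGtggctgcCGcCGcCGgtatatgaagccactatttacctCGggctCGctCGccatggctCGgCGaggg
The starts behind the Hoxa7 and Hoxc4 windows lie inside the longer gene spans of the GENCODE annotation, so each is one of several possible starts.

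The motif CG, which reads the same on both strands, occurred 9 times in the Hoxa7 window and 9 times in the Hoxc4 window, against 29 times in the Hoxd1 window. Over all 32851 RefSeq promoter windows of the same length the median was 7, 94.6% held at least 1 CG, 54.2% held fewer than the Hoxa7 and Hoxc4 windows and 87.1% held fewer than the Hoxd1 window. The table matched 22 of the 39 Hox genes with 24 windows, whose median was 14.5 CG dinucleotides. The ratio of observed to expected CG was 0.41 for Hoxa7, 0.33 for Hoxc4 and 0.80 for Hoxd1, beside a median of 0.38 over all windows. Of the matched members, Hoxa13 and Hoxd13, with the most CG at 45 and 37, had no count in any library, and Hoxb4, with 75 counts, had 14 CG. At the low end, Hoxa9 and Hoxd4 with 4 CG had 1 count each, Hoxd8 with 6 CG had 7 and Hoxa2 with 9 CG had 2. Hoxd11, with no count, also had a window with 4 CG. Hoxc5 and Hoxc6 were not among the matched genes, and a link between CG and the Q140 difference was not tested. This is a description of the letters in these windows, and methylation was not measured.

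**Figure D2:**
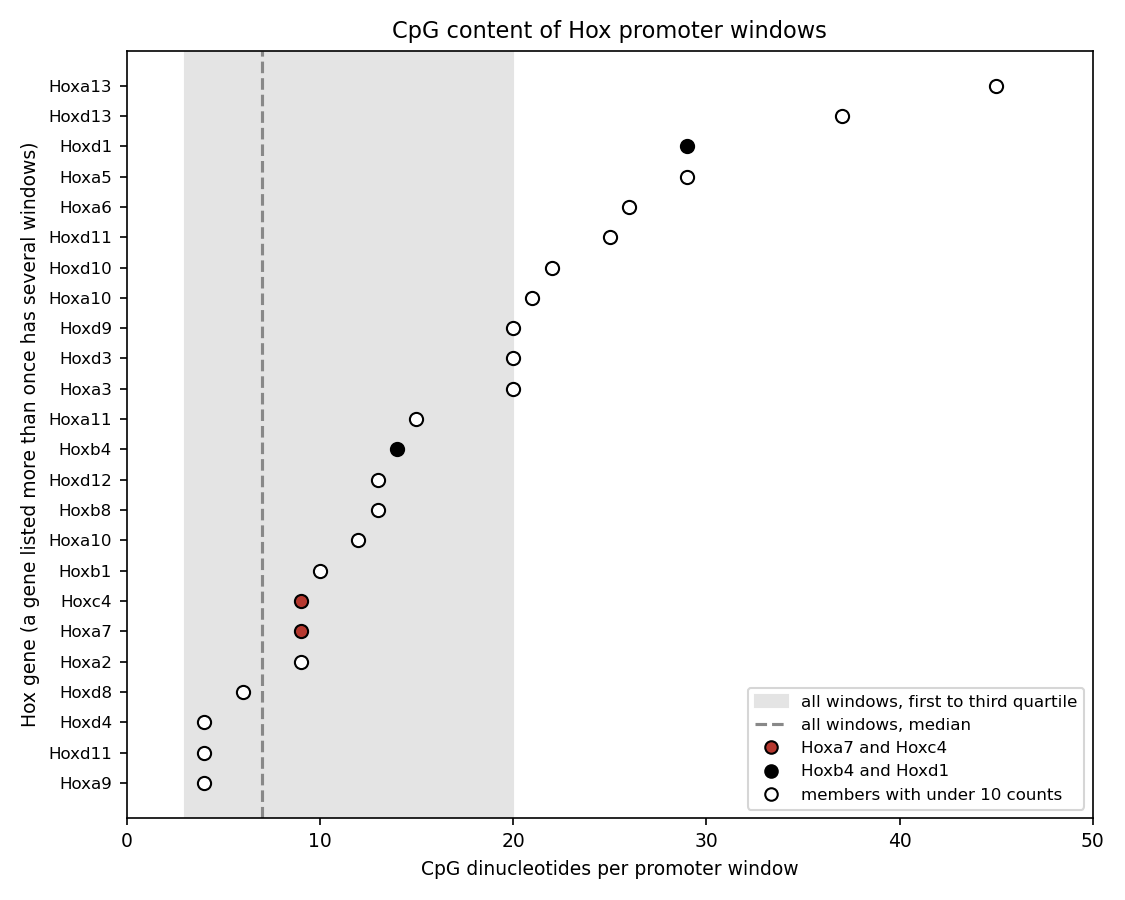
Number of CG dinucleotides (x axis) in each of the 24 RefSeq promoter windows found for 22 Hox genes (1 circle per window, sorted), with the middle quartiles of all 32851 windows shaded and their median as a dashed line. The Hoxa7 and Hoxc4 windows (red) hold 9 each and the Hoxd1 window holds 29.

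Hoxa7, a trunk Hox gene of the central part of its cluster, was higher with Q140 on each of the 3 Ccdc82 backgrounds. Its gene (ENSMUSG00000038236) spans chr6:52214491-52221854 on the minus strand of GRCm38. In Q140 striatum it had a lowest, median and highest count of 8, 16 and 21, against 0, 4.5 and 9 in wild type striatum. On the Ccdc82+/- background the same values were 1, 19.5 and 24 counts in Q140 Ccdc82+/- mice and 1, 3 and 5 counts in Ccdc82+/- mice. On the Ccdc82-/- background they were 9, 13 and 21 counts in Q140 Ccdc82-/- mice and 0, 4.5 and 11 counts in Ccdc82-/- mice. The groups overlapped on each background. In Q140 Ccdc82+/- mice this came from 1 library, female replicate 4 with 1 count, while the other 7 libraries had 11 to 24 counts. On the Ccdc82-/- background, female replicate 1 and male replicate 3 of Ccdc82-/- mice had 10 and 11 counts. In CPM these 2 libraries stood at 0.200 and 0.267, within the range of 0.163 to 0.437 CPM in Q140 Ccdc82-/- mice.

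Scaled for depth, Hoxa7 averaged 0.296 ± 0.0828 CPM in Q140 and 0.0983 ± 0.0576 CPM in wild type (SD, n = 8 each). It averaged 0.341 ± 0.166 CPM in Q140 Ccdc82+/- and 0.0649 ± 0.0306 CPM in Ccdc82+/- mice (SD, n = 8 each). In Q140 Ccdc82-/- mice it averaged 0.288 ± 0.109 CPM (SD, n = 7), against 0.111 ± 0.0861 CPM in Ccdc82-/- mice (SD, n = 8). In raw counts, 17 of the 23 libraries with Q140 lay above the highest of the 24 libraries without it. In CPM the highest library without Q140 stood at 0.267, and fewer of the libraries with Q140 lay above it than in raw counts. The libraries with Q140 had a median of 0.324 CPM and ran from 0.0219 to 0.546 CPM. Hoxa7 was detected in 23 of 23 and 22 of 24 libraries. More cells that express a gene and more of its RNA per cell cannot be told apart in bulk tissue.

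In edgeR's quasi-likelihood fit of all 47 libraries, with sex as a term and Benjamini-Hochberg adjustment over 19193 genes, Hoxa7 was 1.56 ± 0.37 (log2 fold change ± SE) higher in Q140 than in wild type (adjusted p = 0.000639). It was 2.33 ± 0.39 higher in Q140 Ccdc82+/- than in Ccdc82+/- mice (adjusted p = 3.15e-06) and 1.33 ± 0.37 higher in Q140 Ccdc82-/- than in Ccdc82-/- mice (adjusted p = 0.00409). The mean of the 3 effects was 1.74 ± 0.22 (adjusted p = 1.82e-09). Thus 1 of the 2 Hox genes tested passed the threshold of 0.05 in each of these comparisons. Over all genes tested 34.7%, 35% and 33.2% passed on the 3 backgrounds in that order and 54.3% passed in the mean effect, so that a call by itself was common. Exact two-sided permutation tests of mean CPM over the libraries gave Hoxa7 p = 0.000311, 0.00124 and 0.00528 on the 3 backgrounds, where the smallest possible p is 0.000155 with 8 against 8 libraries and 0.000311 with 7 against 8. Permuting the libraries 100000 times within each background gave p = 1e-05 for the mean difference, the smallest those permutations can give. Backgrounds with equal numbers of libraries shared the same shuffle, so they were not permuted independently of each other.

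**Figure D3:**
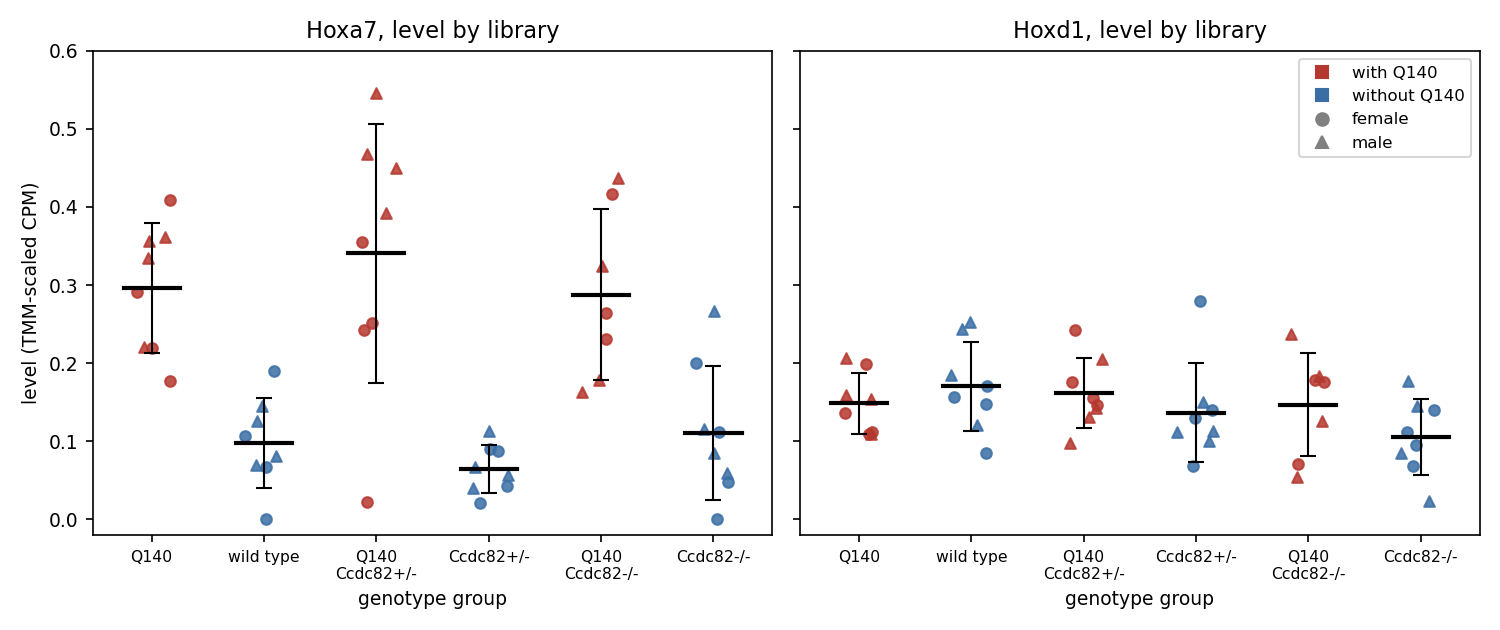
Level of Hoxa7 (left) and Hoxd1 (right) in each of the 47 libraries (y axis, TMM-scaled CPM) by genotype group, with circles for females, triangles for males, red for groups with Q140 and blue for groups without. Black lines give the group mean and 1 SD; the Hoxa7 means lie between 0.288 and 0.341 CPM with Q140 and between 0.0649 and 0.111 CPM without, and the Hoxd1 groups overlap.

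Hoxa7 did not pass the test for either Ccdc82 genotype. Its log2 difference was -0.60 ± 0.49 (SE) in Ccdc82+/- against wild type mice and 0.14 ± 0.45 in Ccdc82-/- against wild type mice, and with Q140 it was 0.17 ± 0.29 and -0.08 ± 0.31 on the same backgrounds. The Q140 effect on Hoxa7 was 0.77 ± 0.57 larger on the Ccdc82+/- background than with intact Ccdc82 (edgeR interaction, adjusted p = 0.944) and differed by -0.22 ± 0.54 on the Ccdc82-/- background (adjusted p = 0.998). In these 4 Ccdc82 comparisons and 2 interactions edgeR called 0 of 2 Hox genes, and DESeq2 called 0 as well. Over all genes, 1 of 19193 (0.00521%) passed in each Ccdc82 comparison and none in either interaction. Of the 2 genes that passed the filter, Hoxd1 alone had an unadjusted p under 0.05, at -0.66 ± 0.30 in Ccdc82-/- against wild type mice (unadjusted p = 0.0304). In the fit without the filter, which covers 20 Hox genes, 0 were called in the Ccdc82 comparisons. There the unadjusted edgeR p was under 0.05 for Hoxd1 in Ccdc82-/- against wild type mice (0.0373), Hoxb3 in Q140 Ccdc82+/- against Q140 mice (0.0313), and Hoxa4 and Hoxd8 in Q140 Ccdc82-/- against Q140 mice (0.0399 and 0.00739).

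Hoxa7 was higher with Q140 in both sexes. Females averaged 0.274 ± 0.102 CPM in Q140 and 0.0910 ± 0.0794 CPM in wild type (SD, n = 4 each), and males 0.319 ± 0.0662 CPM in Q140 and 0.106 ± 0.0361 CPM in wild type (SD, n = 4 each). In Q140 Ccdc82+/- mice the 4 males had 94 counts together and the 4 females 40, against 13 and 12 counts in Ccdc82+/- males and females; a difference between the sexes was not tested. Fits within 1 sex used at most 4 mice per group, and in females alone Hoxa7 had edgeR adjusted p-values of 0.0832, 0.0852 and 0.0785 on the 3 backgrounds. In males alone it had an adjusted p of 0.0555 on the Ccdc82-/- background.

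The wells named in the labels lie in 6 plate columns, and Hoxa7 was higher with Q140 within each of them. The means in columns 1 to 6 were 0.192, 0.354, 0.371, 0.405, 0.281 and 0.335 CPM with Q140, against 0.0561, 0.108, 0.0159, 0.112, 0.121 and 0.106 CPM without. Column 6 holds 1 library with Q140. With the plate column as a term, the mean Q140 effect on Hoxa7 was 1.92 (log2 fold change, edgeR, adjusted p = 2.51e-09).

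No such change was detectable at this depth in the neighbours of Hoxa7 on either side. Hoxa6, a trunk Hox gene 5768 bases away, had no count in any library, and Hoxa9, a gene of the posterior trunk 1245 bases away on the other side, had 1 count, in a Q140 Ccdc82+/- library. Hoxa5 likewise had 1 count and Hoxa10, Hoxa11 and Hoxa13 had none. Hoxaas3, an antisense RNA whose exons share 586 of the 2876 exon bases of Hoxa7, had 1 count with Q140 and 1 without. The libraries were stranded per the labels, and the strand setting of the counting is not given in the sources used here.

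Among the anterior Hoxa genes, Hoxa4, a gene of the hindbrain and neck region, had 4 counts with Q140, 3 of them in 1 library, and 0 counts without. The lower 95% counting limit of that ratio was 0.66, and the permutation p for the mean Q140 effect was 0.235. Hoxa2 had 2 counts in 1 Q140 library, and Hoxa3 had 1 count with Q140 and 2 counts without. Exons of Hoxa3 and Hoxa4 overlap antisense genes, and Hoxa2 and Hoxa3 share exon bases with a read-through gene on the same strand, so these few counts may not all belong to them.

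Hoxc4, Hoxc5 and Hoxc6, neighbouring genes used in the neck and upper trunk, had most of their counts in libraries with Q140; they are grouped here after their values were seen. Together they had 72 counts in 19 of 23 libraries with Q140, against 3 counts in 3 of 24 libraries without, a ratio of 24.1 with a 95% counting interval of 7.91 to 119. By group the sums were 14 counts in Q140 and 0 in wild type, 34 in Q140 Ccdc82+/- and 1 in Ccdc82+/-, and 24 in Q140 Ccdc82-/- and 2 in Ccdc82-/- mice. The highest library, female replicate 1 of Q140 Ccdc82+/-, had 14 of these counts, and no library without Q140 had more than 1. Over the pooled counts of the libraries this was 0.0636 CPM with Q140 (95% Poisson interval 0.0497 to 0.0801) and 0.00264 CPM without (0.000545 to 0.00772); the intervals cover counting error only.

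Hoxc4 (ENSMUSG00000075394, chr15:103018934-103036852, plus strand) had 30 counts in 13 of 23 libraries with Q140 and 0 counts in all 24 without, for which the lower 95% counting limit of the ratio is 7.66. Its sums were 6, 17 and 7 counts in Q140, Q140 Ccdc82+/- and Q140 Ccdc82-/- mice. Hoxc6 (ENSMUSG00000001661, chr15:102998257-103011881, plus strand) had 28 counts in 14 libraries with Q140 and 2 counts in 2 libraries without, a ratio of 14.0 with a counting interval of 3.54 to 122. Its sums were 6, 8 and 14 counts in the 3 groups with Q140, against 0, 1 and 1 counts in wild type, Ccdc82+/- and Ccdc82-/- mice. Hoxc5 (ENSMUSG00000022485, chr15:102967443-103017429, plus strand) had 14 counts in 7 libraries with Q140 and 1 count in 1 library without, a ratio of 14.0 with a counting interval of 2.13 to 593. Its span in the annotation runs across Hoxc6, Hoxc8 and Hoxc9, but its exons share bases only with Hoxc10, which had no count.

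**Figure D4:**
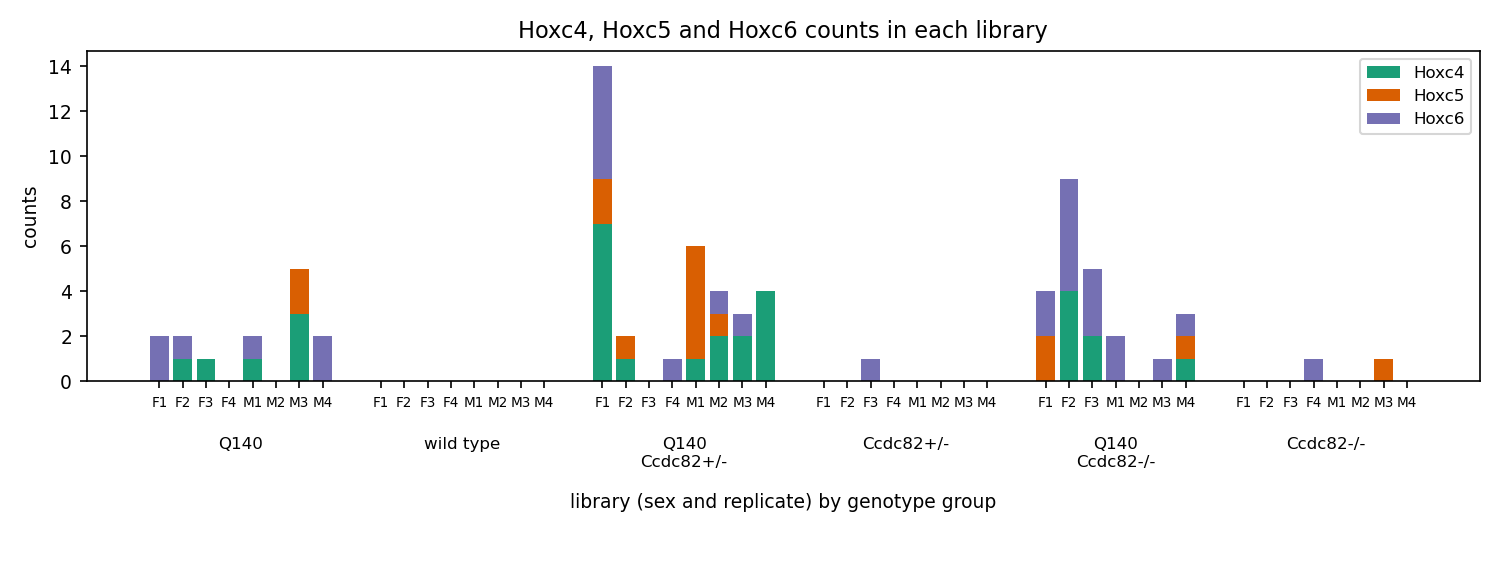
Counts of Hoxc4 (green), Hoxc5 (orange) and Hoxc6 (purple) stacked for each of the 47 libraries (y axis, counts), by genotype group, with F and M for female and male and the replicate number. The 3 genes have counts in 19 of 23 libraries with Q140, up to 14, and a single count in each of 3 of the 24 libraries without.

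These genes are under the filter on low counts, so they were tested in an edgeR fit of all 33998 genes with a count. There Hoxa7, Hoxc4, Hoxc5 and Hoxc6 passed in the mean Q140 effect, 4 of the 20 Hox genes with a count and all higher, where 30.7% of all genes passed and 16.6% passed as higher. Members with 0 counts in both groups of a background could not pass in this mean, whatever their other counts. Nor could Hoxc13, which had 0 counts in Ccdc82+/- and in Q140 Ccdc82-/- mice, groups on opposite sides of the mean. The 20 genes therefore include members that this mean could not test. The adjusted p-values of edgeR were 6.81e-05 for Hoxc4, 6.43e-05 for Hoxc6 and 0.0110 for Hoxc5. Permuting the libraries within each background (two-sided, 100000 permutations, not adjusted over the 20 members so tested) gave p = 7e-05 for Hoxc4, 3e-05 for Hoxc6 and 0.00983 for Hoxc5. Backgrounds of equal size shared the same shuffle here too. Leaving out male replicate 1 of Q140 Ccdc82+/-, which has 5 of the 14 Hoxc5 counts with Q140, gave a permutation p of 0.0501 for Hoxc5.

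On single backgrounds the same unfiltered edgeR fit called 3 of 20 Hox genes in Q140 against wild type (17.9% of all genes), 3 in Q140 Ccdc82+/- against Ccdc82+/- (18% of all genes) and 2 in Q140 Ccdc82-/- against Ccdc82-/- (17.2% of all genes). Hoxa7 was among them each time. Hoxc6 passed with intact Ccdc82 (adjusted p = 0.0417) and on the Ccdc82-/- background (adjusted p = 0.00993), and Hoxc4 and Hoxc5 passed on the Ccdc82+/- background (adjusted p = 0.00333 and 0.0173). Exact permutation of mean CPM, not adjusted over the members, gave p = 0.0769 for Hoxc6 with intact Ccdc82 and 0.00777 on the Ccdc82-/- background, and 0.00699 for Hoxc4 and 0.0769 for Hoxc5 on the Ccdc82+/- background. A call on 1 background and not on another does not show a difference between them. No Hox gene passed in either interaction of this fit, with none at an unadjusted p under 0.05. For members with 0 counts in whole groups, such as Hoxc4 in every group without Q140, the interaction has no finite estimate. It therefore cannot show whether the backgrounds differ for those members.

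The rest of the Hoxc cluster stayed at or near 0. Hoxc8, Hoxc10, Hoxc11 and Hoxc12 had no count, and Hoxc9 had 1 count, in Q140. Hoxc13, the gene at the far end of the cluster that acts in hair and nail formation, had 4 counts with Q140 and 2 counts without. The 9 Hoxc genes together averaged 0.0381 ± 0.0294 CPM in Q140 and 0.00254 ± 0.00717 CPM in wild type (SD, n = 8 each), and 0.0953 ± 0.0946 CPM in Q140 Ccdc82+/- and 0.00283 ± 0.00800 CPM in Ccdc82+/- mice (SD, n = 8 each). They averaged 0.0684 ± 0.0588 CPM in Q140 Ccdc82-/- (SD, n = 7) and 0.00893 ± 0.0179 CPM in Ccdc82-/- mice (SD, n = 8). No gene of the cluster region outside the Hoxc set had a count among the 7 in the table.

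Hoxd1, an anterior gene at the edge of the Hoxd cluster that is known for a role in the wiring of pain-sensing neurons, was detected in all 47 libraries and did not pass the edgeR test in any comparison. Its gene (ENSMUSG00000042448) spans chr2:74762980-74765142 on the plus strand. The lowest, median and highest values were 0.109, 0.146 and 0.206 CPM in Q140 and 0.0854, 0.164 and 0.252 CPM in wild type. They were 0.0977, 0.151 and 0.243 CPM in Q140 Ccdc82+/- and 0.0679, 0.121 and 0.280 CPM in Ccdc82+/- mice, and 0.0543, 0.176 and 0.238 CPM in Q140 Ccdc82-/- and 0.0231, 0.103 and 0.177 CPM in Ccdc82-/- mice. The groups overlapped on every background. Its log2 difference was -0.21 ± 0.27, 0.22 ± 0.28 and 0.41 ± 0.31 (SE) on the 3 backgrounds and 0.14 ± 0.17 in the mean (edgeR, adjusted p = 0.495), so that a small change is not shown to be absent. Between the Ccdc82 genotypes without Q140 it averaged 0.106 CPM in Ccdc82-/- and 0.170 CPM in wild type mice, with an exact two-sided permutation p of 0.0286 that is not adjusted over the 11 members so tested.

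**Figure D5:**
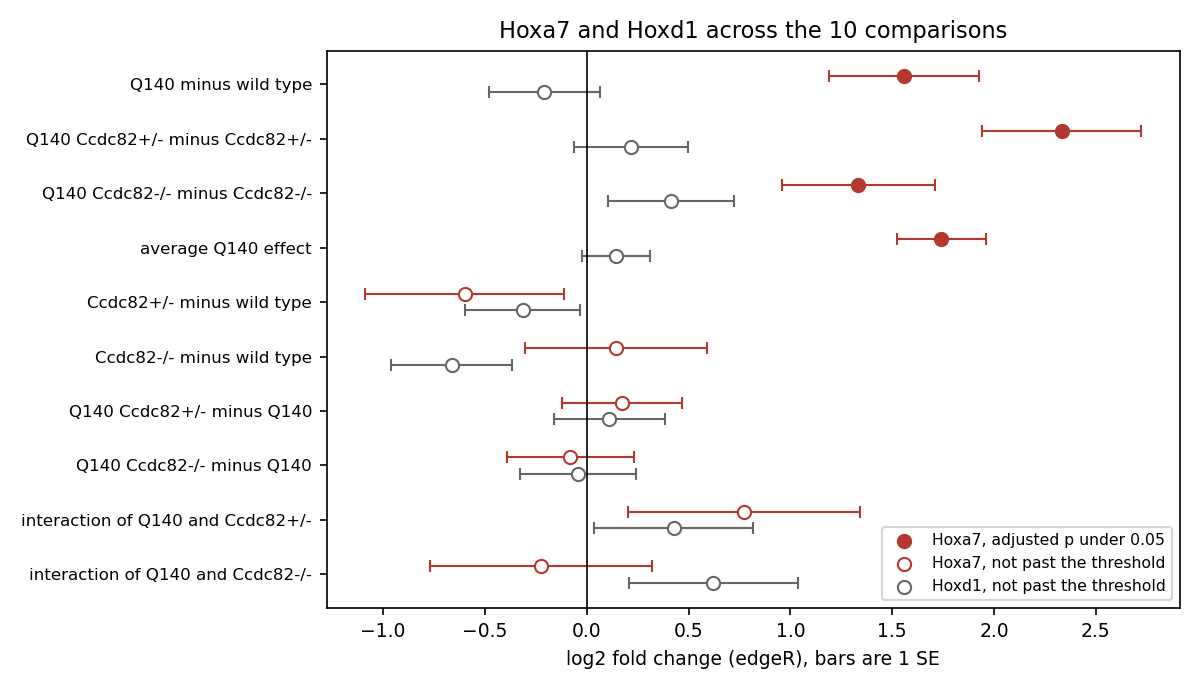
Log2 fold changes of Hoxa7 (red) and Hoxd1 (grey) with bars of 1 SE (x axis, edgeR) in the 10 comparisons (down the page); filled circles have an adjusted p under 0.05. Hoxa7 passed in the 3 single Q140 comparisons and their mean, between 1.33 and 2.33, and in none of the Ccdc82 comparisons or interactions.

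Hoxd8, a trunk gene of the middle of its cluster, had 6 counts in Q140, spread over 5 of 8 libraries, 1 count in Q140 Ccdc82+/- mice and 0 counts in every other group. Over all libraries this is 7 counts with Q140 and 0 without, for which the lower 95% counting limit of the ratio is 1.44. It passed in the unfiltered edgeR fit for Q140 against wild type (adjusted p = 0.0411, exact permutation p = 0.0256, not adjusted). That fit could not test the mean Q140 effect on Hoxd8, because both groups of the Ccdc82-/- background had 0 counts. The permutation p for the mean was also 0.0256, not adjusted. It is not separate from the first, since the 2 backgrounds with counts were shuffled together. Hoxd4 had 1 count and Hoxd3 and Hoxd9 to Hoxd13 had none. Haglr, a noncoding RNA that starts beside Hoxd1 on the opposite strand, had 425 counts with Q140 and 311 without and rose by 0.39 ± 0.15 (log2 fold change ± SE) in the mean Q140 effect (edgeR, adjusted p = 0.0252). It passed on no single background, with 0.51 ± 0.26 in Q140 against wild type (adjusted p = 0.119), 0.62 ± 0.26 on the Ccdc82+/- background (adjusted p = 0.0591) and 0.03 ± 0.26 on the Ccdc82-/- background (adjusted p = 0.951).

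In the Hoxb cluster no member passed a test with adjusted p-values. Hoxb4, a gene of the hindbrain and neck that is also known from blood stem cells, had 30 counts in 17 of 23 libraries with Q140 and 45 counts in 19 of 24 libraries without, the one member with over 10 counts that had fewer with Q140, a ratio of 0.67 with a counting interval of 0.41 to 1.08. Its sums were 10, 8 and 12 counts in Q140, Q140 Ccdc82+/- and Q140 Ccdc82-/- mice and 17, 10 and 18 counts in wild type, Ccdc82+/- and Ccdc82-/- mice (unfiltered edgeR, mean Q140 effect, adjusted p = 0.347). Hoxb3, a hindbrain gene, had 8 counts with Q140 and 4 without, and Hoxb13, the most posterior member, had 9 counts with Q140, 4 of them in 1 library, and 4 counts without. The counting intervals of both ratios span 1. Hoxb5 and Hoxb9 had 1 count each and Hoxb1, Hoxb2, Hoxb6, Hoxb7 and Hoxb8 had none.

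RNAs of proteins that work with Hox proteins or set the state of the clusters were read next. The values in these lists are log2 differences ± SE in the mean Q140 effect of the edgeR fit, in which 28.8% of all genes rose, 25.5% fell and the median difference was 0.00. Of 9 Hox cofactors, the TALE homeodomain proteins that bind DNA with Hox proteins, 1 rose and 6 fell, with a median of -0.06. Meis2, which is abundant in striatal projection neurons, fell by 0.27 ± 0.01, Pbx4 by 0.26 ± 0.04, Pknox1 by 0.14 ± 0.02 and Pknox2 by 0.12 ± 0.02.

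Of 11 measured members of Polycomb repressive complex 2, which writes histone H3 lysine 27 trimethylation, 4 rose and 2 fell, with a median of -0.02. Suz12, a core subunit, rose by 0.08 ± 0.02 and Rbbp4, a histone-binding subunit, rose by 0.08 ± 0.01, while Rbbp7 fell by 0.11 ± 0.01 and the accessory subunit Aebp2 fell by 0.15 ± 0.02. Of 21 members of Polycomb repressive complex 1, which binds that mark and ubiquitinates histone H2A, 8 rose and 6 fell, with a median of -0.02. Cbx8, a chromobox reader of the mark, rose by 0.69 ± 0.04 (adjusted p = 5.06e-20), while Cbx7, another chromobox protein, fell by 0.15 ± 0.02 and Scmh1 by 0.20 ± 0.02.

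Of 13 Trithorax group members and H3 lysine 27 demethylases, which oppose Polycomb at Hox genes, 7 rose and 3 fell, with a median of 0.04. Kmt2a, the methyltransferase that maintains Hox expression, fell by 0.22 ± 0.03, Ash1l by 0.09 ± 0.01 and Psip1 by 0.08 ± 0.01, and Ash2l rose by 0.12 ± 0.01. Of 19 upstream regulators 15 passed the filter, and Cdx2, a regulator of trunk Hox genes, had no count in any library. Of the 15, among them retinoic acid receptors and their enzymes, 1 rose and 11 fell, with a median of -0.17. Those past 0.3 were Egr2, a hindbrain segment regulator that is also an activity-dependent gene in neurons, at -1.51 ± 0.16, and the retinoid genes Rxrg at -0.57 ± 0.04, Rarb at -0.37 ± 0.02, Crabp2 at -0.36 ± 0.06 and Aldh1a1 at -0.35 ± 0.07.

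Of 14 tested genes on the flanks of the 4 clusters, 8 rose and 3 fell, with a median of 0.05. Skap1, at the side of the Hoxb cluster, rose by 0.46 ± 0.11, and Atp5g1, Snx10 and Skap2 rose by 0.23 ± 0.02, 0.22 ± 0.01 and 0.19 ± 0.03. Calcoco1, at the side of the Hoxc cluster, fell by 0.26 ± 0.02. Each of these was under the change of Hoxa7 in size.

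Markers of other cell types were read beside the Hox results. Of 15 markers of the hindbrain and spinal cord, where Hox genes are normally active, 3 passed the filter and none passed the test in the mean Q140 effect (edgeR, with none at 0 in every library). Their summed level had a median of 2.27 CPM (range 1.66 to 3.21) in Q140 and 2.32 CPM (1.89 to 2.60) in wild type. The medians were 2.06 CPM in Q140 Ccdc82+/- and 2.34 CPM in Ccdc82+/- mice, and 2.10 CPM in Q140 Ccdc82-/- and 2.49 CPM in Ccdc82-/- mice. In no pair of groups was that median higher with Q140. Of 10 markers of meningeal and vascular fibroblasts 0 rose and 4 fell, and their summed medians were 83.52 to 85.03 CPM in the groups with Q140 and 89.1 to 89.8 CPM in those without. Of 9 endothelial markers 9 fell, of 8 microglial markers 8 fell, and of 12 markers of striatal neurons 1 rose and 11 fell, with medians of -0.19, -0.14 and -0.61. Of 6 oligodendrocyte and 6 astrocyte markers 3 and 3 fell and none rose, of 9 choroid plexus markers 1 rose and 2 fell, of 7 cortical neuron markers 2 rose and 2 fell, of 5 tested blood and immune markers 1 fell, and of 6 ependymal markers none passed. The part of such shifts in the Hox results was not tested.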

How the data were processed

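Striatal RNA was prepared with a stranded TruSeq protocol, per the labels' protocols, and STAR 2.7.5c, SAMtools 1.10 and HTSeq 0.12.3 on GRCm38 are named in the submitters' processing notes. The authors deposited raw counts per gene and FPKM values per gene, which equal count over total and length within a relative deviation of 6.9e-15. Positions are from GENCODE M21. The members and lists were chosen with earlier results of these data known.

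Counts were tested with edgeR 4.0.16 (R 4.3.3): filterByExpr on 6 groups (19193 genes kept), TMM scaling, 1 coefficient per genotype group plus sex, robust quasi-likelihood, Benjamini-Hochberg over all genes tested, threshold 0.05. On simulated counts of Q140 against wild type it recovered 193 of 200 changed genes, with 8 of the unchanged genes called. The changed genes were drawn only from genes with levels well above those of Hoxa7 and Hoxd1. This recovery therefore does not measure how well changes in Hox genes would be found. DESeq2 1.42.0 and limma 3.58.1 (log2 of FPKM plus 0.01 or 0.1) were alternatives. Permutation tests (SciPy 1.17.1) used mean CPM over libraries. In those for the mean Q140 effect, backgrounds with equal numbers of libraries shared the same shuffle and were not permuted independently. Members under the filter were summed. Named genes were the members, and from the lists of cofactors, chromatin proteins and flanks those past the threshold with an absolute log2 fold change of at least 0.3, otherwise up to 4 per list with the smallest p. The single-gene values of 1 member and 1 listed chromatin gene are not reported here; both stay in the totals. Intervals are exact binomial or Poisson at 95% and cover counting error only. Leaving out libraries, sexes, terms and the filter were tried. Depth was 41327333 to 61701245 counts per library. The labels name single mice by sex and replicate.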

Additional observations from a re-analysis of the deposited data

Results flagged for a closer look

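Over 36 group values of Hoxa7, Hoxd1 and the cluster sums, 6 had 1 library far from the others of its group by Dixon's criterion. Chance does this in about 1 in 20 groups of continuous values. That rate does not hold for groups of few counts and many zeros, so the number flagged cannot be read against it. Female replicate 4 of Ccdc82+/- had the highest Hoxd1 level of its group at 0.280 CPM, which is also its summed Hoxd level of 0.280 CPM. Female replicate 1 of Q140 Ccdc82+/- had the highest summed Hoxc level of all libraries at 0.310 CPM. In 3 groups without Q140 a summed Hoxc level stood out because nearly all other libraries were at 0: 0.0203 CPM in male replicate 2 of wild type, 0.0226 CPM in female replicate 3 of Ccdc82+/- and 0.0485 CPM in male replicate 3 of Ccdc82-/-.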

How the results depend on the processing

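The Hoxa7 calls in the 3 single Q140 comparisons and their mean held under RLE scaling, no sex term, the plate column as a term, the fits of 2 groups alone, DESeq2, and FPKM with limma at both pseudocounts, where the mean effect was 0.66 with a pseudocount of 0.1; the mean and the interactions cannot be had from 2 groups. Without the filter the Hox genes called were 3 in Q140 against wild type, 3 on the Ccdc82+/- background, 2 on the Ccdc82-/- background and 4 in the mean. In females alone 0 were called in each of the 3 single comparisons, and in males alone 0 on the Ccdc82-/- background, with at most 4 mice per group. Leaving out each library in turn kept 1 call in each Q140 comparison (lowest 1, highest 1) and 0 elsewhere (lowest 0, highest 0), and the mean Hoxa7 effect stayed between 1.69 and 1.83 (log2); the alternatives for the CPM difference of single genes, and the choice of the library left out next, were made after seeing the data. Without Q140 Ccdc82+/- female replicate 4 the Hoxa7 effect on that background was 2.50. With the shuffle shared between backgrounds of equal size, Hoxc5 missed the permutation threshold in either sex alone (p = 0.0931 in females, 0.0856 in males). The summed Hoxa difference between libraries with and without Q140 was 0.225 CPM, and 0.00798 CPM without Hoxa7; the Hoxb difference was -0.00565 CPM, and reversed to 0.00851 CPM without Hoxb4. The replicate numbers do not pair the mice: of 115 pairs with the same number 29 correlated over 0.1 (median -0.0047) and 9 of 47 libraries correlated best with their own number. With a replicate block the mean Hoxa7 effect was 1.71 and every count of called Hox genes was the same. Depth limits most members, whose counts are too few for single groups.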
